A study of Zea mays with 2 samples.

Results

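Transcripts that were listed in only one of 2 maize endosperm libraries were examined by their level, length, position and surroundings. The fl4 (floury4) mutant and a wild type were each represented by 1 library of endosperm RNA taken 19 days after pollination. The labels name no other allele or treatment, do not name the inbred lines behind either genotype, and assign 1 sample to each, although the design text speaks of triplicates. Values are FPKM, fragments divided by the length of a feature and by the size of its library. With 1 library per genotype no test was possible, and every difference describes these 2 libraries.

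Members were features at exactly 0 FPKM in one library and at 1 to under 300 FPKM in the other, with a span of at least 150 bp. Of 65527 features with a readable position, 36097 had a higher value within these limits and a span long enough. Among these, 257 were at 0 in the wild type (fl4-only, 0.712%) and 221 at 0 in fl4 (wild-type-only, 0.612%). The remaining 35619 were above 0 in both libraries and serve for comparison. Of these, 88 were above 0 but under 0.05 FPKM in the wild type, and 62 in fl4. With values under 0.05 FPKM counted as 0 there were 345 fl4-only and 283 wild-type-only members. Members were thus chosen by their FPKM in both libraries, so these counts and levels are a description. A value of exactly 0 FPKM may also stand for an estimate that failed, so a member is said to be listed at 0 and no fold change is given for it. In bulk tissue, fewer cells of a type and less RNA per cell cannot be told apart.

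The endosperm feeds the seedling and fills during mid-development with starch and with zeins, the main storage proteins of maize. Floury mutants have soft, opaque kernels, and floury4 has been reported to affect an alpha-zein, a class encoded by clustered, closely related gene copies. The files give positions without gene names, so the altered gene, the zeins and markers of the labelled tissue could not be checked, and no function is given to any member. Positions are those of the files, whose genome build is not given in the sources used.

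Transcripts listed in one genotype only were mostly weak. The median level was 2.29 FPKM in the fl4-only subgroup (quartiles 1.39 and 5.78, n = 257) and 2.17 FPKM in the wild-type-only subgroup (quartiles 1.41 and 4.28, n = 221). The features above 0 in both had a median of 6.82 FPKM in their higher library. In either subgroup 44.3% to 44.4% of members lay between 1 and 2 FPKM, where 17.7% of the comparison features lay. At 10 FPKM or more stood 40 of 257 fl4-only members, 22 of 221 wild-type-only members and 14083 of the 35619 comparison features. All members together made up 0.137% of the summed FPKM of fl4 and 0.106% of that of the wild type. The summed FPKM of all listed features was 1.10 times as high in fl4. Sequencing depth is unknown, and with it the precision of any low value.

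The share of features listed at 0 fell as the level rose. It was 3.26% of 6507 compared features at 1 to 2 FPKM (Wilson 95% interval 2.85% to 3.72%), 0.869% of 6788 at 5 to 10 FPKM and 0.236% of 2545 at 50 FPKM or more (0.108% to 0.513%). These intervals treat features as independent and cover counting of features only. The last class holds 6 members, 4 fl4-only and 2 wild-type-only.

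Values close to the limits of the rule were continuous at the lower end and separated at the upper end. The lowest fl4-only members stood at 1.006 and 1.008 FPKM in fl4, and the nearest features outside stood at 0.999 and 0.996. Wild-type-only members began at 1.001 and 1.002 FPKM in the wild type, with 0.999 and 0.996 just outside. At the upper end the highest fl4-only member stood at 98.9 FPKM. The next features of at least 150 bp listed at 0 in the wild type stood at 329 and 452 FPKM, both on chromosome 4. Beyond the upper limit lay 11 features listed at 0 in the wild type and 0 features listed at 0 in fl4, with the same limit on span. The shortest fl4-only members spanned 154 bp, and the shortest wild-type-only members 150 and 151 bp. Below the span limit 376 further features fell within the level limits in fl4 alone and 166 in the wild type alone, the longest of them at 149 and 148 bp.

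Short features carried much of the list. The median span was 450 bp in the fl4-only subgroup (binomial 95% interval 319 to 503) and 412 bp in the wild-type-only subgroup (284 to 523), against 2948 bp for features above 0 in both. Spans under 300 bp made up 42.8% of fl4-only and 44.8% of wild-type-only members, and 5.25% of the comparison features. Of 799 compared features spanning 150 to under 200 bp, 66 were fl4-only and 54 wild-type-only, together 15.02% (12.7% to 17.7%). Of 12563 features spanning 2000 to under 5000 bp, 31 were fl4-only and 18 wild-type-only, together 0.390% (0.295% to 0.515%). The 1035 features of 20000 bp or more held 6 and 4 members, together 0.966% (0.526% to 1.77%).

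**Figure D1:**
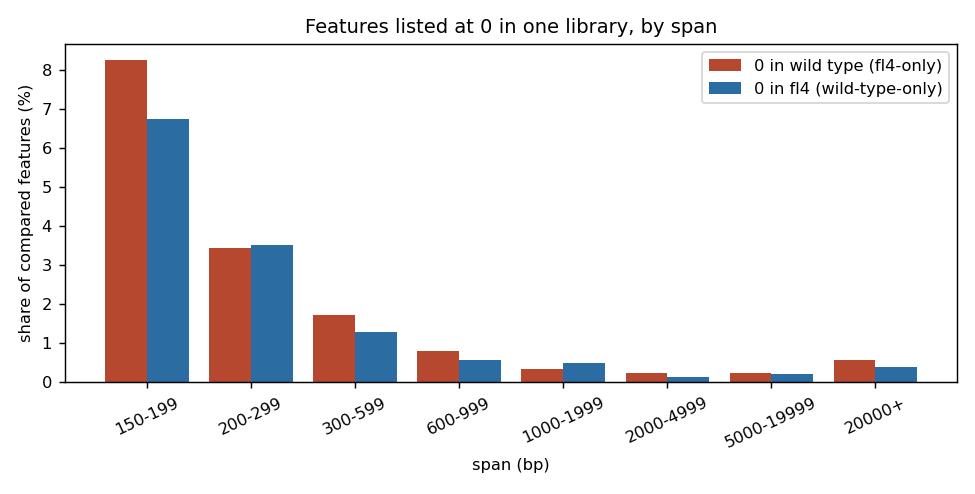
Share of compared features (%) listed at 0 in one library, by span class in bp, with red bars for 0 in the wild type and blue bars for 0 in fl4. The share falls from 8.26% and 6.76% at 150 to under 200 bp to 0.247% and 0.143% at 2000 to under 5000 bp, and stands at 0.580% and 0.386% in the longest class.

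Being listed at 0 went with both short length and low level. At 1 to 2 FPKM, 20.7% of features under 300 bp were members (106 of 513), against 1.12% of features of 1000 bp or more (49 of 4364). At 10 FPKM or more the shares were 2.74% (17 of 621) and 0.288% (35 of 12134). FPKM multiplied by the span in kb gives the fragments of a feature relative to library size, as an upper limit, since a span may hold introns. Its median was 1.34 for fl4-only members, 1.12 for wild-type-only members and 18.9 for comparison features. The part of fragment number in the zeros was not tested.

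The most abundant members were both long and short. Among the 8 highest members of each subgroup, 5 were longer than 2000 bp and the other 3 spanned 695 bp or less. Of the comparison features 35.1% spanned 2000 to under 5000 bp, 24.8% 5000 to under 20000 bp and 2.88% 20000 bp or more. Such long spans were thus about as common among these few members as among comparison features. In the fl4-only subgroup a feature on chromosome 6 from 157480627 to 157492290 stood at 98.9 FPKM in fl4 against 0 in the wild type. A feature on chromosome 1 from 269031134 to 269033163 stood at 64.2 and 0 FPKM. One on chromosome 4 from 45665835 to 45671290 stood at 61.2 and 0 FPKM. All of these shared their span with another listed feature, and the one on chromosome 6 is described further on. On the chromosome 1 span the other features summed to 2.70 FPKM in fl4 against 0.691 in the wild type. On the chromosome 4 span they summed to 5.21 and 1.57 FPKM. The fourth, on chromosome 2 from 80545393 to 80549231, was alone on its span at 50.2 and 0 FPKM. Behind it came a feature of only 185 bp on chromosome 5 from 66846469 at 44.8 FPKM, and one on chromosome 6 from 124858505 to 124863803 at 35.9 FPKM. The last of the 8, of 156 bp on chromosome 4 from 84279199 and of 265 bp on chromosome 3 from 68387426, stood at 35.0 and 34.2 FPKM in fl4 and were alone on their spans.

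In the wild-type-only subgroup 1 feature stood apart. On chromosome 3 from 88263850 to 88264544, with a span of 695 bp, it reached 121 FPKM in the wild type and 0 in fl4. It was the only member above 100 FPKM in either subgroup. The next, on chromosome 4 from 73365972 to 73370376, was listed with 54.1 FPKM in the wild type against 0 in fl4. Features on chromosome 3 from 144099054 to 144102954 and from 91446807 to 91450186 followed at 43.1 and 41.8 FPKM, each against 0. A feature of 353 bp on chromosome 2 from 52821607 to 52821959 stood at 37.5 FPKM and was alone on its span. The remaining 3, on chromosome 2 from 190785736 and from 124057199 and on chromosome 5 from 21592258, stood at 29.3, 22.1 and 19.8 FPKM and shared their spans. Thus 7 of the 8 highest wild-type-only members and 4 of the 8 highest fl4-only members lay on a shared span.

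**Figure D2:**
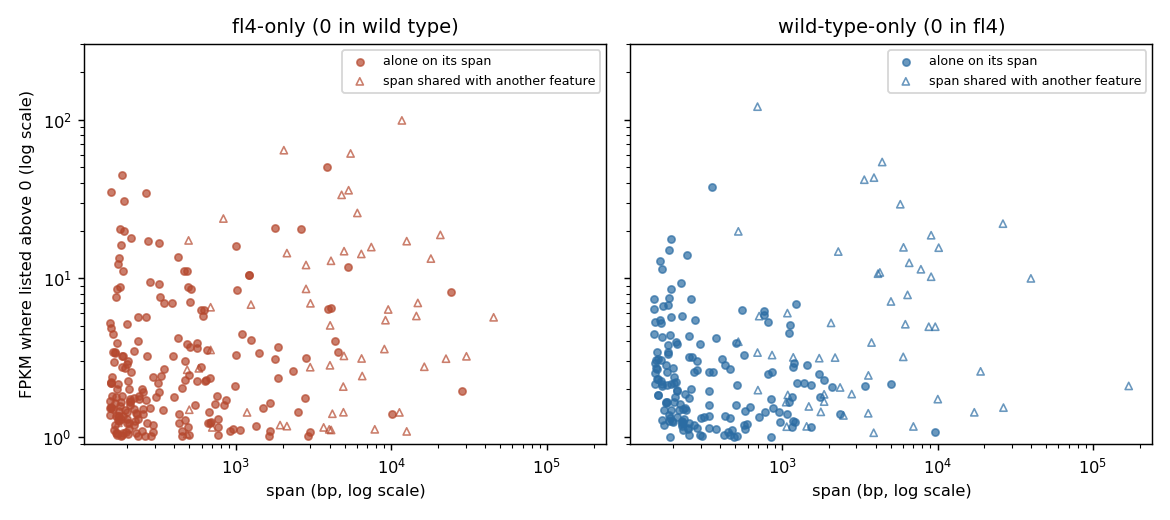
FPKM in the library where a member is above 0 against its span in bp, both on log scales, for 257 fl4-only members (left) and 221 wild-type-only members (right). Filled circles are alone on their span and open triangles share it with another feature, and the triangles lie mostly at long spans.

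The longest members were not the most abundant. Among fl4-only members the longest span, 45413 bp on chromosome 4 from 205349535, carried 5.67 FPKM in fl4, and the next, 30354 bp on chromosome 8 from 56154788, carried 3.22 FPKM. Among wild-type-only members the longest span, 169844 bp on chromosome 1 from 160287317, carried 2.09 FPKM in the wild type, and the next, 39872 bp on chromosome 7 from 171749016, carried 9.98 FPKM. Each of these 4 shared its span with at least 1 other feature.

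A span listed for several features may stand for a merged locus, within which the features may be transcripts or genes of a single region. In the fl4-only subgroup 55 members (21.4%, Wilson 95% interval 16.8% to 26.8%) shared a span, and in the wild-type-only subgroup 54 (24.4%, 19.2% to 30.5%), close to the 24.9% of comparison features. Short features seldom share a span, and with spans of at least 300 bp the shares were 36.7% and 44.3% of members against 26.2% of the comparison features. Each subgroup occupied 50 shared spans. No span (0) held members of both subgroups. The fl4-only spans held only 65 other features, and 0.612% of all compared features were wild-type-only. For wild-type-only spans the values were 62 features and 0.712% fl4-only, so a count of 0 says little. At any level, 7 spans held one feature at 0 in the wild type and another at 0 in fl4, and 1 of these had a member. That span, on chromosome 1 from 253280469 to 253298392, held an fl4-only member at 13.3 FPKM, a feature at 0.198 FPKM in the wild type and 0 in fl4, and another at 1.999 FPKM in fl4 against 1.33 in the wild type.

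The other features on these spans were partly at similar levels in both libraries and partly different in the member's direction. They were summed per span in each library, and log2 ratios of fl4 to wild type use a pseudocount of 1 FPKM, with which a sum under 1 FPKM in both libraries cannot reach 2-fold. A feature other than the members was listed on 46 of the 50 fl4-only spans, and its sum reached 1 FPKM in either library on 30. Of these 30 spans, 20 lay within 2-fold, 10 were higher in fl4 by 2-fold or more, and 0 were lower by as much. Of 47 wild-type-only spans with such a feature 31 reached 1 FPKM, and 25 of them lay within 2-fold, 5 were lower in fl4 by 2-fold or more and 1 was higher. Singly, 38 other features on fl4-only spans were above 0 in both libraries and at 1 FPKM or more in either, of which 12 were higher in fl4 by 2-fold or more (31.6%) and 0 lower. On wild-type-only spans 6 of 38 were lower by 2-fold or more (15.8%) and 1 was higher. Over all features of that level above 0 in both, 4.48% were higher and 3.68% lower. With no limit on level, 12 of 57 were higher on fl4-only spans and 6 of 54 lower on wild-type-only spans, and of all 61296 features above 0 in both 2.74% were higher and 2.25% lower by 2-fold. Of all 65 other features on fl4-only spans 7 were listed at 0 in the wild type, as the member was. On wild-type-only spans 8 of 62 were listed at 0 in fl4. Over all features but members 3.52% were at 0 in the wild type and 2.25% in fl4. Features on 1 span share their listed position and may share reads, and whether reads were divided between them was not tested.

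The other features on the span of the highest fl4-only member were at similar levels. Beside its 98.9 FPKM in fl4, the other feature on that chromosome 6 span stood at 20.6 FPKM in fl4 against 22.4 in the wild type, so that the whole span summed to 119 and 22.4 FPKM. On chromosome 1 from 219379297 to 219385327 a member at 25.8 FPKM in fl4 lay with a feature at 5.59 and 5.32 FPKM. On the wild-type side, the member at 54.1 FPKM on chromosome 4 lay with a feature at 8.43 FPKM in fl4 against 7.81 in the wild type. On the chromosome 2 span from 124057199 to 124083556 the other 3 features summed to 70.5 and 57.5 FPKM, so that the whole span, with the member's 22.1 FPKM, differed little, at 70.5 FPKM in fl4 against 79.6 in the wild type.

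Spans on which the other features differed in the same direction as the member were also seen on either side. On chromosome 4 from 35922653 to 35927429 the member stood at 33.6 FPKM in fl4 and the other feature at 13.9 FPKM in fl4 against 0.182 in the wild type. On chromosome 5 from 168417852 to 168418680 the member stood at 23.8 FPKM and the other feature at 11.3 and 0.115 FPKM. On chromosome 4 from 1078562 to 1091089 members summing to 18.2 FPKM in fl4 lay with features summing to 26.3 and 3.35 FPKM. Lower in fl4 were the other feature on the chromosome 3 span from 91446807, at 3.43 FPKM in fl4 against 25.5 in the wild type, and that on chromosome 2 from 130359677 to 130363816, at 2.23 and 42.5 FPKM beside a member at 10.7 FPKM. The 1 span whose other features differed against its member by 2-fold or more, at a pseudocount of 1 FPKM, lay on chromosome 7 from 38539989 to 38542053, where a wild-type-only member at 5.23 FPKM lay with a feature at 11.8 FPKM in fl4 against 4.13 in the wild type.

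**Figure D3:**
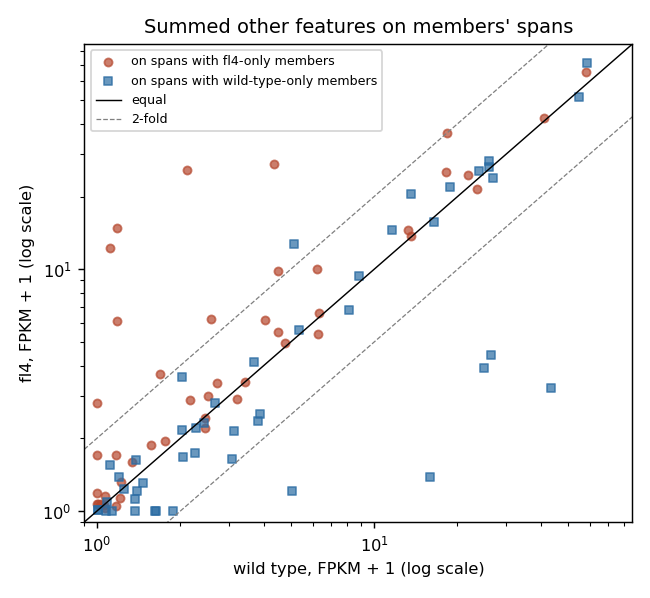
Summed FPKM + 1 of the features other than members on each shared span, fl4 against wild type on log scales, with red circles for spans with fl4-only members and blue squares for spans with wild-type-only members. The solid line marks equality and the dashed lines 2-fold, and among points that reach 1 FPKM in either library 20 of 30 red and 25 of 31 blue points lie within the dashed lines, while points with both sums below that lie within them by construction.

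On 4 fl4-only spans and 3 wild-type-only spans every listed feature was a member, so that the whole span was listed in a single genotype. The fl4-only spans of this kind were chromosome 3 from 55103252 to 55105375 with a sum of 15.6 FPKM, chromosome 4 from 8305886 to 8308705 with 20.7 FPKM, chromosome 4 from 45533647 to 45534332 with 10.1 FPKM, and chromosome 2 from 121142450 to 121142934 with 3.69 FPKM. In the wild type they were the span of the 121 FPKM feature on chromosome 3, which summed to 124 FPKM, that on chromosome 5 from 21592258 to 21592780 with 23.7 FPKM, and that on chromosome 2 from 186265524 to 186267387 with 3.52 FPKM. Counting weaker features as well, the whole span summed to 0 in the other library on 8 of the 50 fl4-only and on 9 of the 50 wild-type-only spans. Where the sum was above 0 in the other library, it lay within 2-fold on 9 of 42 fl4-only spans and on 14 of 41 wild-type-only spans. These sums include the member, whose values the rule had set. A difference in the member's direction was therefore partly built in, and the counts are a description only.

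**Figure D4:**
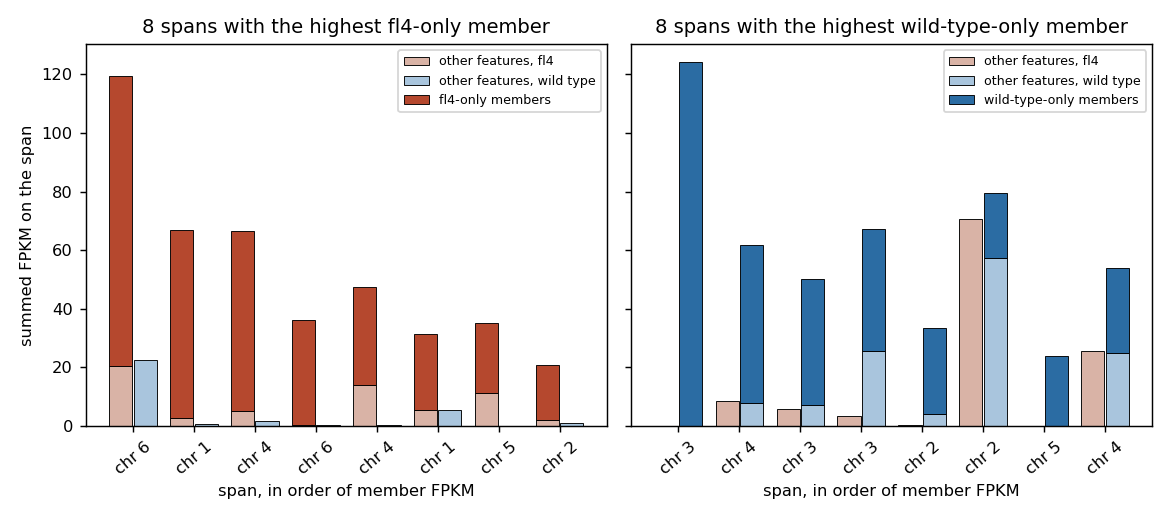
Summed FPKM in each library on the 8 shared spans with the highest fl4-only member (left) and wild-type-only member (right), with members in dark colour stacked on the other features in pale colour. On chromosome 6 at the far left the other feature is at 20.6 FPKM in fl4 against 22.4 in the wild type below a member at 98.9, and at the far left of the right panel the whole span is listed in the wild type alone.

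Members were scattered over all 10 numbered chromosomes, and 0 lay among the 44 compared features of mitochondrial, chloroplast or unplaced sequence. Chromosome 2 held 15.6% of fl4-only members (40, Wilson 95% interval 11.6% to 20.5%) and 18.6% of wild-type-only members (41, 14.0% to 24.2%), against 11.9% of comparison features. Chromosome 4 held 16.7% of fl4-only members (43, 12.7% to 21.8%) and 12.2% of wild-type-only members (27, 8.53% to 17.2%), against 10.3%. On chromosome 5 the fl4-only share was 5.06% (13, 2.98% to 8.46%) and the wild-type-only share 10.9% (24, 7.41% to 15.6%), against 11.5%. Whether the subgroups differ in their distribution was not tested. Within the first 10 Mb of chromosome 4, 7 fl4-only and 6 wild-type-only members lay among 226 compared features, 3.10% and 2.65% of them. From 55 to 100 Mb of chromosome 3 there were 8 of each among 339, 2.36% each. Both stretches had been singled out earlier from these data for many differences, so their counts are not independent of that choice.

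The surroundings of members were about as dense in features as elsewhere. A window of 1 Mb centred on the feature held a median of 31 distinct spans for fl4-only members (95% interval 28 to 33), 32 for wild-type-only members (30 to 34) and 34 for comparison features (33 to 34). Counting only members on other spans, another member lay within 20 kb of 11 fl4-only (4.28%) and 11 wild-type-only members (4.98%). Such a member lay within 20 kb of 1.75% of comparison features. All gaps to other members were likewise taken between different spans, so members sharing a span were not counted as near each other. Within 100 kb the shares were 8.56%, 12.7% and 5.50%. The median gap to the nearest other member was 1116 kb for fl4-only members (binomial 95% interval 951 to 1389) and 1366 kb for wild-type-only members (875 to 1741). The median gap of comparison features to a member was 1497 kb, which the second interval covers.

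Of 27 pairs of successive member spans within 100 kb, 15 joined members of one subgroup, 7 fl4-only and 8 wild-type-only, and 12 joined opposite subgroups. The subgroups were of similar size (257 and 221 members). Members sharing a span are left out of these pairs, and no span held members of both subgroups. Whether members grouped by genotype was not tested. The closest of the 27 pairs lay 13 bp apart on chromosome 1. There wild-type-only members from 243162916 to 243163777 and from 243163791 to 243164001 stood at 2.57 and 1.97 FPKM. On chromosome 9 fl4-only members from 13496949 to 13497219 and from 13497627 to 13497895 stood at 17.1 and 3.23 FPKM in fl4, and the next span, 1089 bp further on, was wild-type-only at 1.21 FPKM. On chromosome 10 a wild-type-only member at 1.44 FPKM lay 6867 bp from an fl4-only member at 4.06 FPKM.

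No window of 1 Mb held more than 3 members, and 13 windows held 3. The 3 of these with the highest summed member FPKM are described. On chromosome 3 from 88 to 89 Mb, with 15 compared features, the 2 wild-type-only members of the 121 FPKM span were joined by an fl4-only member from 88469399 to 88471173 at 20.8 FPKM. On chromosome 4 from 45 to 46 Mb, with 13 compared features, all 3 members were fl4-only, at 61.2, 6.56 and 3.53 FPKM. On chromosome 9 from 32 to 33 Mb, with 12 compared features, successive fl4-only members from 32271151, 32272870 and 32282888 stood at 19.98, 11.1 and 3.39 FPKM in fl4.

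Among features near members, those that differed by 2-fold lay more often in the member's direction, while the middle of the neighbours hardly differed. These neighbours lay on other spans and were above 0 in both libraries, so the rule did not choose them. Within 100 kb of fl4-only members 4.13% of 1793 neighbours were higher in fl4 by 2-fold or more, and 2.01% were lower. Around wild-type-only members 2.92% of 1608 were higher and 3.54% lower. The corresponding shares over all features above 0 in both were 2.74% and 2.25%. At a pseudocount of 0.1 FPKM the shares around wild-type-only members were 7.84% and 8.02%, against 7.19% and 6.74% over all features, so at this distance the contrast there depended on the pseudocount. Within 20 kb the contrast was wider. There 42 of 572 neighbours of fl4-only members (7.34%, Wilson 95% interval 5.48% to 9.78%) were higher in fl4 by 2-fold or more, and 11 (1.92%, 1.08% to 3.41%) lower. Around wild-type-only members 9 of 472 (1.91%, 1.01% to 3.58%) were higher and 26 (5.51%, 3.79% to 7.95%) lower. The median log2 ratio of neighbours within 20 kb was 0.066 (binomial 95% interval 0.039 to 0.089) beside fl4-only members and 0.014 (-0.0090 to 0.032) beside wild-type-only members, and 0.021 over all features. Within 100 kb of wild-type-only members 56.4% of neighbours were higher in fl4 to any degree, against 55.2% of all features.

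**Figure D5:**
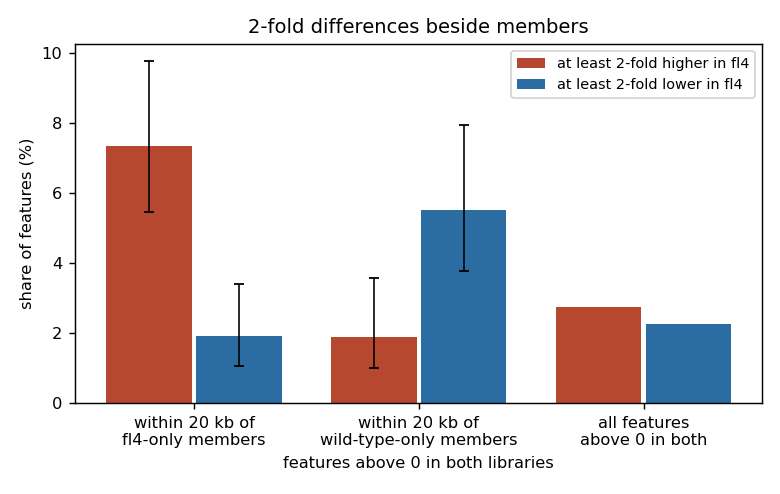
Share (%) of features above 0 in both libraries that were at least 2-fold higher (red) or lower (blue) in fl4, for features within 20 kb of fl4-only members, within 20 kb of wild-type-only members, and for all features. Error bars are Wilson 95% intervals, and the higher share is 7.34% beside fl4-only members while the lower share is 5.51% beside wild-type-only members.

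The differing neighbours were spread out. The 42 higher neighbours of fl4-only members lay on 40 spans beside 36 member spans on 10 chromosomes, and the 26 lower neighbours of wild-type-only members lay on 26 spans beside 22 member spans on 7 chromosomes. Without the first 10 Mb of chromosome 4 the shares were 7.002% higher and 1.80% lower beside fl4-only members, and 1.08% higher and 4.96% lower beside wild-type-only members.

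Some of these neighbourhoods formed short runs. On chromosome 2 an fl4-only member from 71607049 to 71607669 at 6.31 FPKM was followed by a feature from 71607924 to 71608367 at 19.6 FPKM in fl4 against 0.1204 in the wild type. The next, from 71608469 to 71608652, stood at 178 and 2.93 FPKM. These features thus stood far apart between the libraries over a stretch of less than 2 kb. On chromosome 4 the member from 124004126 at 15.7 FPKM lay 906 bp from a feature at 14.9 FPKM in fl4 against 0.307 in the wild type. On the wild-type side, a member on chromosome 4 from 5503672 to 5508706 at 2.15 FPKM lay near features from 5509115 at 1.199 FPKM in fl4 against 15.4 in the wild type and from 5511244 at 12.0 and 199 FPKM. A wild-type-only member on chromosome 4 from 4541414 to 4542542 at 5.10 FPKM lay 211 bp from a feature at 0.060 FPKM in fl4 against 12.2 in the wild type. These examples, the pairs of successive members and the shared spans beyond the 8 highest members were chosen after their values were seen.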

How the data were processed

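Endosperm RNA of fl4 and of the wild type was profiled 19 days after pollination, with 1 library of each. The deposited values are FPKM, computed by the authors, per the file headers. The submitters' processing notes list Bowtie 0.12.2. How features were quantified, on which build and annotation, with which filters, and whether replicates were pooled is not given in the sources used. Each file lists 65535 features in the same order, and 8 without a readable position were left out. Whether these lists are complete is not stated in the sources used. Sums, shares, densities and whole spans therefore refer to the listed features only.

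Members were taken by exact zero, level and span as stated in the report. No test was made. Shares carry Wilson 95% intervals and medians binomial order-statistic intervals, both over features, which are not replicates. Log2 ratios use a pseudocount of 1 FPKM. The members, the lists and the limits were chosen with earlier results of these data known. Features were named by rank (the 8 highest and 2 longest members per subgroup), by closeness to the limits and by density in windows of 1 Mb, ties being broken by summed FPKM, a choice made after the data were seen. Alternatives covered the limits on level and span, scaling to equal totals, values under 0.05 FPKM counted as 0, the pseudocount and the neighbour distance. Selection, distances and neighbours were tested on simulated data. Depth is unknown. Computation used Python 3.11.15, pandas 2.3.3, NumPy 2.4.6, SciPy 1.17.1 and matplotlib 3.10.9.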

Additional observations from a re-analysis of the deposited data

How the results depend on the processing

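Of 146 alternative values for 24 results, 80 stayed within 1.5 times (counts) or within the interval of the result (shares and medians), and 66 moved. Scaling both libraries to equal totals moved 0 of them. The numbers of fl4-only and wild-type-only members (257 and 221) became 449 and 371 from 0.5 FPKM, 143 and 123 from 2 FPKM, 72 and 49 from 5 FPKM, 633 and 387 without a limit on span and 147 and 122 from 300 bp. Their median levels became 1.15 and 1.25, 5.04 and 3.84, 11.2 and 8.61 FPKM at those 3 limits on level, and 5.50 and 5.25 FPKM without a limit on span. From 300 bp the fl4-only median level was 3.10 FPKM. These shifts follow from the limits themselves. The fl4-only median span became 558 bp from 2 FPKM and 509 bp when values under 0.05 FPKM counted as 0. From 5 FPKM the median spans were 758 and 765 bp, without a limit on span 123 and 174 bp, and from 300 bp 1177 and 1164 bp. The fl4-only share of chromosome 5 became 9.16%, and the wild-type-only share of chromosome 2 13.7%, without a limit on span. From 5 FPKM 6.94% of fl4-only members lay in the first 10 Mb of chromosome 4. The share of members on a shared span became 37.5% and 46.9% from 5 FPKM, 8.69% and 14.0% without a limit on span, and 36.7% and 44.3% from 300 bp. It was 28.0% for fl4-only members from 2 FPKM and 18.3% for wild-type-only members from 0.5 FPKM. The median gap to the nearest other member, which depends on how many members there are, became 764 and 812 kb from 0.5 FPKM, 2797 and 2514 kb from 2 FPKM, 5284 and 6072 kb from 5 FPKM, 597 and 554 kb without a limit on span, and 2128 and 2745 kb from 300 bp. It was 893 kb for fl4-only members when values under 0.05 FPKM counted as 0. The median log2 ratio of neighbours (0.036 and 0.029) was 0.082 and 0.070 when the pseudocount was 0.1 FPKM, 0.0098 and 0.0080 when it was 5 FPKM, 0.066 and 0.014 within 20 kb, and 0.095 and 0.068 from 1 FPKM. Within 20 kb, by alternatives chosen after the data were seen, the shares 2-fold higher in fl4 beside fl4-only members and 2-fold lower beside wild-type-only members (7.34% and 5.51%) were 12.8% and 10.4% at a pseudocount of 0.1 FPKM (over all features 7.19% and 6.74%), 2.62% and 2.33% at 5 FPKM (0.945% and 0.742%), and 11.9% and 8.58% for neighbours from 1 FPKM (4.48% and 3.68%). The shares the other way were 5.42% and 6.99% at 0.1 FPKM, and 0.524% beside fl4-only members at 5 FPKM. The causes of the other shifts were not tested. No paired analysis was possible because there is only 1 library of each genotype, and none was left out for the same reason. What depth limits is not known.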

Other observations

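Some members had exactly the same FPKM as another member. There were 4 such pairs, holding 8 of 478 members (1.67%). Identical values also occurred among comparison features, of which 258 of 35619 (0.724%) had both their values in common with another. An fl4-only member of 1218 bp on chromosome 2 from 31931829 to 31933046 and one of the same span on chromosome 7 from 82936937 to 82938154 were both listed at 10.4689 FPKM in fl4. Each had a neighbour at a gap of 1133 bp on the same side, at 3.66 FPKM in fl4 against 0.117 in the wild type on chromosome 2 and at 7.48 and 0.193 FPKM on chromosome 7. A pair of wild-type-only members of 160 bp on chromosome 2, from 207865734 and from 207888730, were both listed at 1.82463 FPKM. The other pairs differed in span, with 1.42618 FPKM in fl4 on chromosome 1 (1177 and 11248 bp) and 4.9482 FPKM in the wild type on chromosomes 2 and 8 (8785 and 9669 bp). Whether reads were shared between copies was not tested.

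Members were unevenly placed in the order of the deposited tables. Features 50001 to 60000 of the tables held 168 members among 4110 compared features (4.09%), and features 1 to 5000 held 74 among 1842 (4.02%). Features 5001 to 50000 held 172 among 26661 (0.645%), and features 60001 to 65535 held 64 among 3484 (1.84%). The median span of compared features in these 4 blocks was 911, 1412, 3313 and 2575 bp. Among spans of 1000 bp or more the shares were 2.53%, 1.82%, 0.221% and 1.08%. What sets the order of the tables is not stated in the sources used.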
